A study of Mus musculus with 60 samples.

Results

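The transcripts described here are 41 genes of DNA replication and mitosis, a set often read as a measure of cell proliferation. They are a list of symbols, drawn up with earlier results of these data known, and each symbol was matched to 1 Ensembl gene through GENCODE. All 41 were among the 15546 genes retained of the 55335 gene IDs in the files, where a gene was retained with 1 CPM (counts scaled to the library size) or more in 1 mouse or more. The data are RNA-Seq of kidneys from 60 male mice on the C57BL/6J background, with 5 mice of each of 2 genotypes at 6 zeitgeber times (ZT0, ZT4, ZT8, ZT12, ZT16, and ZT20, in h after lights on). Both genotypes were homozygous for a loxP-flanked Bmal1 allele, and both drank doxycycline (DOX, 2 mg/mL with 20 mg/mL sucrose) for 2 weeks from an age of 8 weeks, about 1 month before collection. The cKOt mice (Bmal1lox/lox/Pax8-rtTA/LC-1) also carried a Pax8-driven reverse tetracycline transactivator, which is active along the renal tubule, and a Cre transgene that it switches on. The control mice were their Bmal1lox/lox littermates. Recombination was thus limited to cells that express Pax8, and the other cells of the kidney kept the floxed allele.

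Before S phase, the MCM2-7 complex is loaded onto origins with the help of CDC6, and together with CDC45 and GINS it becomes the helicase that opens DNA at the fork. PCNA is the sliding clamp of the polymerases, and ribonucleotide reductase, thymidylate synthase, and thymidine kinase supply the nucleotides. E2F factors drive many of these genes in late G1, whereas the mitotic genes are driven later by the MuvB complex with B-MYB and FOXM1, often through a cell cycle genes homology region (CHR) and CCAAT boxes bound by NF-Y. In the adult kidney few tubular cells divide, so these transcripts are usually rare, and resident leukocytes and endothelial cells can add to them. BMAL1 acts with CLOCK through E-box elements.

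Promoter sequences were available for 34 of the 41 members (RefSeq, GRCm38.p6, from 250 bases before to 50 bases after each annotated start, 37 windows). The CHR letters TTTGAA, on either strand, were present for 18 of the 34 members and for 20.2% of all genes with a window. CCAAT was found, on either strand, for 28 of the 34 and for 41.1% of all genes. An E2F site (TTTGGCGC, TTTGCCGC, TTTCGCGC, or TTTCCCGC on either strand) was present for 6 of the 34 (Mcm3, Mcm5, Mcm6, Mcm7, Cdc6, and Cdk1) and for 2.60% of all genes. The palindromic E-box CACGTG was present for 1 of the 34, Tyms, and for 8.09% of all genes. These are matches of letters, and binding was not measured. The 5 stretches below cover the 160 bases before the start of a pair of helicase genes, of Cdk1, which had all of the first 3 motifs, and of the mitotic genes Top2a and Mki67, whose mRNA levels are compared across mice below. Capitals mark E2F, CHR, and CCAAT letters on either strand, and neighboring E2F matches can share bases.
Mcm5, chr8:75109349-75109508, plus strand: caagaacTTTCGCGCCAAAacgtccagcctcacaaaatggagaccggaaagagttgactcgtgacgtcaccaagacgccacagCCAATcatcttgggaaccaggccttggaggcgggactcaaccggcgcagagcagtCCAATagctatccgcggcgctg
Mcm6, chr1:128359706-128359865, minus strand: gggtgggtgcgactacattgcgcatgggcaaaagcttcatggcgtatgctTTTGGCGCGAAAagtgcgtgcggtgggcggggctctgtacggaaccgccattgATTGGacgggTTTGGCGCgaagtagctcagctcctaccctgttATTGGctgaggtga
Cdk1, chr10:69352913-69353072, minus strand: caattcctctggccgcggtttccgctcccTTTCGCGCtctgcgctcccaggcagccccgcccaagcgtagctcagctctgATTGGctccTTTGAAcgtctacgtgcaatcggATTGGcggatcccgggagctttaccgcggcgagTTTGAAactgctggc
Top2a, chr11:99024190-99024349, minus strand: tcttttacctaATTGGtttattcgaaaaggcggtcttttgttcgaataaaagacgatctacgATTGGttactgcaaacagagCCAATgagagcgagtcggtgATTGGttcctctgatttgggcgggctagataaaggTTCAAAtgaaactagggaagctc
Mki67, chr7:135716380-135716539, minus strand: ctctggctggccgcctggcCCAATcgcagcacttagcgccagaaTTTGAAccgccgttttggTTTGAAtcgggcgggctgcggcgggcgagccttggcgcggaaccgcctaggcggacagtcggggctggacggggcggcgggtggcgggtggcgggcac

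Each library held 17791420 to 20906706 counts on genes (median 18545208.5), so 1 CPM corresponded to 17.1 to 21.5 counts. The targeted gene, listed as Arntl, ranged over the 6 group means from 2.73 to 48.4 CPM in control mice and from 17.4 to 24.4 CPM in cKOt mice. The sample labels name the renal tubule, but markers of other kidney cells were present in all libraries, with summed levels over 60 mice of at least 285.6 CPM for 5 podocyte markers and at least 294 CPM for 6 endothelial markers. The share of reads on no annotated feature was 7.17% to 9.15% in control (median 8.38%) and 7.8% to 10.6% in cKOt mice (median 8.97%), and 14 of the 30 cKOt libraries were above every control library. In whole tissue, fewer cells of a type and less RNA per cell cannot be told apart.

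The members were of low abundance. Per kilobase of exon, the highest mean levels were 12.8 CPM for Pcna, 4.81 CPM for Smc4, and 4.15 CPM for Mcm7, and the lowest was 0.103 CPM for Cenpf. Of the 41, 15 had a mean below 2 CPM and 5 a mean below 1 CPM. The median count of a member over the 60 mice ran from 9.5 for Ube2c to 568 for Pcna. Pseudogenes were sought only under a member's name followed by -ps. Processed ones were found for Ccnb1, Ccnb2, Tyms, and Pcna, and they can share reads with these genes. Of these pseudogenes, Ccnb2-ps held 291 counts in all libraries together beside 1821 for Ccnb2, and Pcna-ps2 held 79 beside 34543 for Pcna.

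Genotypes were compared as the mean over the 6 time points, cKOt minus control, in edgeR's quasi-likelihood F test with adjustment over all retained genes. Transcripts of 4 helicase subunits, of the clamp Pcna, and of Rrm1 were higher in cKOt mice, and Tk1, Cdc45, and 10 mitotic transcripts were lower. Of all genes tested, 50.0% passed this test at an adjusted p below 0.05, with 26.8% higher and 23.2% lower in cKOt mice. Of the 41 members, 20 passed (48.8%), with 8 higher and 12 lower, so the share of members called was near that of all genes. Among the 13 replication members, 6 were higher (Mcm2, Mcm4, Mcm5, Mcm7, Pcna, and Rrm1) and 2 lower (Cdc45 and Tk1). Among the 28 mitotic members, 2 were higher (Cenpe and Smc2) and 10 lower (Bub1, Cenpf, Birc5, Nusap1, Hmmr, Prc1, Ect2, Racgap1, Top2a, and Mki67). In the main fit, differences were above 0 for 8 of the 13 replication members and below 0 for 26 of the 28 mitotic members. The median log2 difference was 0.11 for replication members and -0.19 for mitotic members, and 0.012 for all genes tested. The difference between these 2 sets of members was not tested. All called differences were small, from -0.54 to 0.33 on the log2 scale.

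Fewer members were called lower in fits that took the share of reads on no feature into account. In 2 such fits chosen after the data were seen, this share was added to the model, or the 14 cKOt libraries above every control were left out. Both fits had 8 higher members, namely Mcm2, Mcm4, Mcm5, Mcm7, Pcna, Rrm1, and Smc2 as before and Mcm3 in place of Cenpe. Only 3 members were lower with the share in the model (Tk1, Mki67, and Smc4) and 4 without the 14 libraries (the same 3 and Cenpf). Over all genes, 3260 were higher and 3130 lower in the first fit, against 4174 and 3604 in the fit without the share. The second fit, which kept 16 of the 30 cKOt mice, had 3155 higher and 2977 lower genes. Bub1, Birc5, Nusap1, Hmmr, Prc1, Ect2, Racgap1, Top2a, and Cdc45 thus lost their call in both fits, as did Cenpe. Apart from Cenpe, their log2 differences in these 2 fits ran from -0.39 and -0.41 for Bub1 to -0.032 and -0.068 for Racgap1. All of these estimates, and that of Cenpe, were smaller in size than in the main fit. This held also in the first fit, which kept all mice. For Mki67 and Smc4 the estimates were larger in size in both fits than in the main fit. Values from the main fit are given below. A lost call does not show that a difference was absent, and the second fit had fewer mice. No called difference changed sign. Of the mitotic members without a call, Plk1, Aurka, Cdc20, and Aurkb were negative in the main fit and positive in both of these fits. With the share in the model they were at 0.15, 0.096, 0.15, and 0.19. Tpx2 and Kif20a were positive in that fit only, at 0.088 each. The other mitotic members tested kept their direction in both fits.

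**Figure D1:**
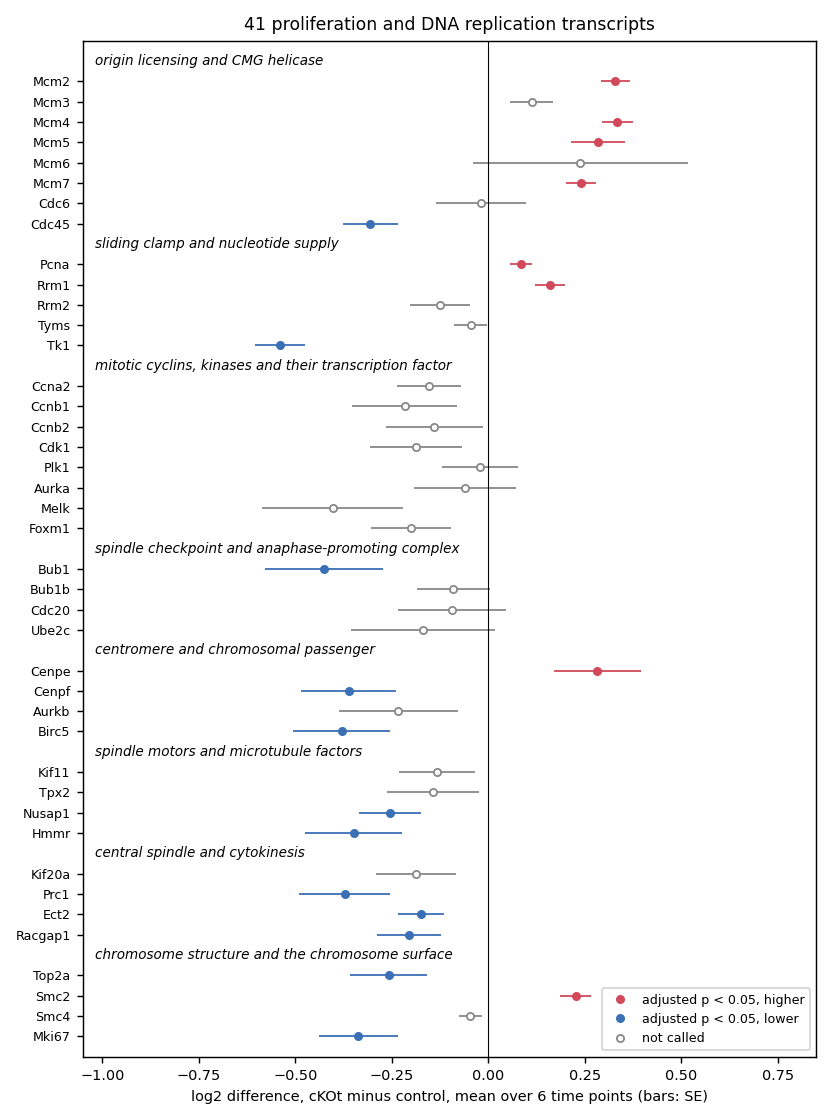
Log2 difference between cKOt and control mice (x axis, mean over 6 time points, fitted by edgeR) for each of the 41 transcripts (y axis, in 8 roles). Points are estimates, bars are 1 SE, filled points passed an adjusted p of 0.05, and Mcm6 has the widest bar (SE 0.28); the called values lie between -0.54 (Tk1) and 0.33 (Mcm4).

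In the helicase, Mcm2, Mcm4, Mcm5, and Mcm7 encode 4 of the 6 subunits of the ring, and all 4 were higher in cKOt mice. Mcm2 (ENSMUSG00000002870, chr6:88883474-88898780, minus strand) was at 7.48 to 11.9 CPM (median 10.1) in the 30 control mice and at 9.0 to 15.0 CPM (median 12.4) in the 30 cKOt mice. The ranges overlapped, but 27 of the 30 cKOt mice lay above the control median, and at ZT16 the groups were fully apart. Its group means in control mice were 9.97 ± 0.618 at ZT0, 10.3 ± 1.38 at ZT4, 10.4 ± 1.17 at ZT8, 9.13 ± 1.22 at ZT12, 10.0 ± 0.961 at ZT16, and 9.99 ± 0.979 at ZT20 (CPM ± SD, n = 5 each). In cKOt mice they were 12.8 ± 2.06 at ZT0, 12.3 ± 1.23 at ZT4, 12.6 ± 1.58 at ZT8, 11.8 ± 1.85 at ZT12, 13.1 ± 0.874 at ZT16, and 11.9 ± 1.8 at ZT20 (CPM ± SD, n = 5 each). The log2 difference was 0.33 ± 0.037 (SE, adjusted p = 4.13e-11), it was above 0 at all 6 time points, and within the 6 library batches it ranged from 0.21 to 0.40.

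Mcm4 (ENSMUSG00000022673, chr16:15623897-15637400, minus strand) was at 6.68 to 12.0 CPM (median 9.16) in control mice and at 9.18 to 14.1 CPM (median 11.6) in cKOt mice. All 30 cKOt mice lay above the control median. Control group means were 8.17 ± 1.33 at ZT0, 9.54 ± 1.27 at ZT4, 9.0 ± 1.98 at ZT8, 10.9 ± 0.988 at ZT12, 8.15 ± 0.158 at ZT16, and 10.4 ± 1.26 at ZT20 (CPM ± SD, n = 5 each), and the 5 mice at ZT16 lay close together, between 7.91 and 8.34 CPM. The means in cKOt mice were 12.4 ± 1.09 at ZT0, 11.6 ± 1.04 at ZT4, 11.4 ± 1.43 at ZT8, 12.3 ± 1.18 at ZT12, 10.5 ± 1.42 at ZT16, and 12.3 ± 1.33 at ZT20 (CPM ± SD, n = 5 each). At ZT0 and at ZT16 every cKOt mouse lay above every control mouse. Over the day cKOt minus control was 0.33 ± 0.04 (SE, adjusted p = 3.38e-10) on the log2 scale, and it ranged from -0.0011 to 0.52 within batches.

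Mcm5 (ENSMUSG00000005410, chr8:75109569-75128439, plus strand) was at 2.6 to 7.15 CPM (median 5.1) in control and at 3.32 to 8.26 CPM (median 6.01) in cKOt mice. By time point, control mice had 5.05 ± 0.907 at ZT0, 4.35 ± 1.47 at ZT4, 4.23 ± 0.678 at ZT8, 5.23 ± 0.533 at ZT12, 5.14 ± 1.39 at ZT16, and 5.65 ± 1.04 at ZT20 (CPM ± SD, n = 5 each). In cKOt mice the values were 6.55 ± 0.938 at ZT0, 5.53 ± 1.03 at ZT4, 5.65 ± 1.02 at ZT8, 5.5 ± 1.3 at ZT12, 5.74 ± 0.68 at ZT16, and 6.69 ± 1.35 at ZT20 (CPM ± SD, n = 5 each). The groups overlapped at every time point, and 24 of the 30 cKOt mice were above the control median. The log2 difference was 0.28 ± 0.07 (SE, adjusted p = 0.000548), with 0.13 to 0.69 within batches. For Mcm7 (ENSMUSG00000029730, chr5:138164583-138172422, minus strand), levels were 12.8 to 22.4 CPM (median 16.6) in control and 14.9 to 25.8 CPM (median 19.6) in cKOt mice, and the log2 difference was 0.24 ± 0.039 (SE, adjusted p = 8.83e-07). Its course over the day is described with the rhythms below.

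The remaining ring subunits did not pass the test. Mcm3 had a log2 difference of 0.11 ± 0.056 (SE, adjusted p = 0.0927). Without 1 control mouse at ZT0 (replicate 5) or 1 at ZT20 (replicate 2), its adjusted p was 0.0191 and 0.0357, with no further mouse of the 60 changing the call. With the no-feature share in the model, Mcm3 was higher by 0.22 (adjusted p = 0.00843). Cdc6, the loading factor, had a mean of 0.772 CPM in the controls, one of 0.751 CPM in cKOt mice, and 7 to 26 counts per mouse (log2 difference -0.02 ± 0.12 (SE, adjusted p = 0.904)). Cdc45 (ENSMUSG00000000028, chr16:18780447-18811987, minus strand), the helicase cofactor recruited after the ring, went the other way. It was at 2.26 to 5.46 CPM (median 3.3) in control mice and at 1.93 to 3.81 CPM (median 2.74) in cKOt mice, with 27 of the 30 cKOt mice below the control median. Control means were 3.44 ± 0.647 at ZT0, 3.03 ± 0.318 at ZT4, 3.14 ± 0.484 at ZT8, 4.28 ± 1.11 at ZT12, 3.6 ± 0.559 at ZT16, and 3.19 ± 0.995 at ZT20 (CPM ± SD, n = 5 each). The cKOt means were 3.0 ± 0.247 at ZT0, 2.74 ± 0.48 at ZT4, 2.44 ± 0.47 at ZT8, 2.94 ± 0.341 at ZT12, 2.81 ± 0.28 at ZT16, and 2.69 ± 0.691 at ZT20 (CPM ± SD, n = 5 each). At ZT16 the highest cKOt mouse was under the lowest control mouse. Over the day cKOt minus control was -0.31 ± 0.07 (SE, adjusted p = 0.000258) on the log2 scale, below 0 in all 6 batches (-0.47 to -0.069). It was -0.17 (adjusted p = 0.113) for Cdc45 with the no-feature share in the model and -0.19 (adjusted p = 0.0897) without the 14 libraries.

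Mcm6 (ENSMUSG00000026355, chr1:128331590-128359664, minus strand) differed from the other ring subunits in how it was spread over mice. In 35 mice it lay between 2.32 and 6.46 CPM (43 to 134 counts), in the other 25 mice between 16.2 and 34.3 CPM (282 to 604 counts), and no mouse lay between these ranges. The gap was a 2.5-fold step, whereas the widest such step of any other member, away from its 3 lowest and 3 highest mice, was 1.29-fold (Cdc20). Both ranges held mice of all 12 groups and of all 6 batches. The lower range held 20 control and 15 cKOt mice, and the higher range 10 control and 15 cKOt mice. The log2 difference was 0.24 ± 0.28 (SE, adjusted p = 0.502), and within batches it ranged from -0.76 to 1.32. With this spread, a difference of the size seen in the other subunits was not detectable for Mcm6. It is left out of the summed levels given below.

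**Figure D2:**
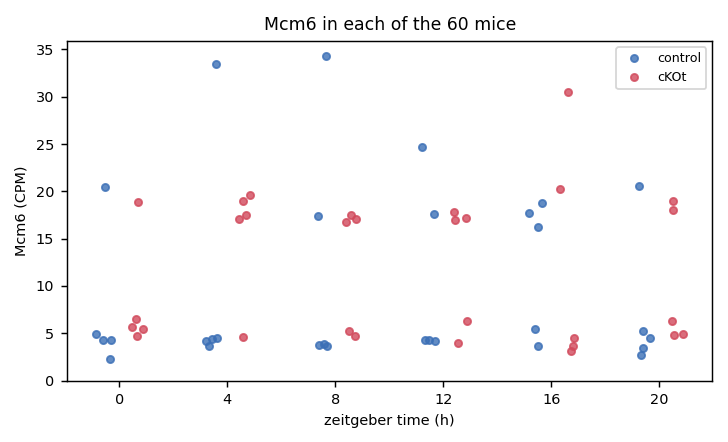
Mcm6 level (y axis, CPM) in each of the 60 mice by zeitgeber time (x axis, h), control in blue and cKOt in red, with points shifted sideways for visibility. In every group some mice lie at 2.32 to 6.46 CPM and others at 16.2 to 34.3 CPM, with none between.

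Of the clamp and nucleotide genes, Tk1 had the largest difference of all 41 members. Tk1 (ENSMUSG00000025574, chr11:117815526-117826092, minus strand), which encodes the thymidine kinase of the salvage pathway, was at 6.59 to 15.1 CPM (median 10.4) in control mice and at 4.19 to 11.3 CPM (median 7.34) in cKOt mice, and 29 of the 30 cKOt mice were below the control median. Its control means were 8.81 ± 1.17 at ZT0, 9.27 ± 3.01 at ZT4, 10.3 ± 1.39 at ZT8, 9.93 ± 1.7 at ZT12, 13.0 ± 1.96 at ZT16, and 11.2 ± 2.21 at ZT20 (CPM ± SD, n = 5 each). The cKOt means were 7.57 ± 0.741 at ZT0, 7.62 ± 2.64 at ZT4, 6.53 ± 1.56 at ZT8, 5.6 ± 1.27 at ZT12, 7.74 ± 0.592 at ZT16, and 7.72 ± 1.22 at ZT20 (CPM ± SD, n = 5 each). The genotypes did not overlap at ZT12, ZT16, or ZT20. On the log2 scale cKOt mice differed by -0.54 ± 0.066 (SE, adjusted p = 7e-10), below 0 at all 6 time points and in all 6 batches (-0.75 to -0.16).

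Pcna (ENSMUSG00000027342, chr2:132249162-132253314, minus strand), the most abundant member, was at 25.2 to 37.1 CPM (median 29.5) in control and 26.0 to 37.5 CPM (median 31.2) in cKOt mice. Control means were 31.0 ± 2.9 at ZT0, 28.2 ± 2.04 at ZT4, 28.1 ± 0.961 at ZT8, 31.3 ± 2.45 at ZT12, 28.4 ± 2.21 at ZT16, and 31.2 ± 4.02 at ZT20 (CPM ± SD, n = 5 each), and cKOt means were 32.2 ± 1.81 at ZT0, 32.8 ± 2.81 at ZT4, 30.8 ± 3.61 at ZT8, 32.2 ± 1.7 at ZT12, 30.8 ± 3.82 at ZT16, and 31.3 ± 1.77 at ZT20 (CPM ± SD, n = 5 each). The difference of 0.085 ± 0.029 (SE, adjusted p = 0.0121) on the log2 scale was the smallest called one. It had the same direction in 4 of the 6 batches, and the call was lost when all mice with replicate number 1 or 3 were left out (adjusted p 0.0637 and 0.142). Rrm1 (ENSMUSG00000030978, chr7:102441695-102469771, plus strand), the large subunit of ribonucleotide reductase, was at 14.7 to 23.1 CPM (median 17.3) in control and 15.9 to 23.9 CPM (median 20.0) in cKOt mice. By time point, control mice had 17.6 ± 2.46 at ZT0, 16.5 ± 2.0 at ZT4, 17.4 ± 2.0 at ZT8, 18.3 ± 2.92 at ZT12, 17.1 ± 1.84 at ZT16, and 18.8 ± 2.75 at ZT20 (CPM ± SD, n = 5 each). The cKOt mice had 19.5 ± 1.57 at ZT0, 20.1 ± 1.65 at ZT4, 19.1 ± 1.99 at ZT8, 20.7 ± 2.0 at ZT12, 18.4 ± 1.52 at ZT16, and 21.1 ± 2.33 at ZT20 (CPM ± SD, n = 5 each). Over the day cKOt mice differed by 0.16 ± 0.039 (SE, adjusted p = 0.000532) on the log2 scale, above 0 in all 6 batches, and 28 of the 30 cKOt mice were above the control median. The small subunit, Rrm2, did not pass the test, with a log2 difference of -0.13 ± 0.078 (SE, adjusted p = 0.181). Neither did Tyms, the thymidylate synthase, with -0.046 ± 0.043 (SE, adjusted p = 0.388).

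None of the 8 mitotic cyclins, kinases, and their transcription factor passed the test. All 8 differences were below 0 in the main fit, from -0.40 ± 0.18 (SE) for Melk to -0.021 ± 0.10 (SE) for Plk1. Those of Plk1 and Aurka were above 0 in both fits that took the no-feature share into account. Foxm1, the forkhead factor of mitotic genes, had a difference of -0.20 ± 0.10 (SE, adjusted p = 0.106), and cyclin A2 (Ccna2) one of -0.15 ± 0.082 (SE, adjusted p = 0.116). For Cdk1 it was -0.19 ± 0.12 (SE), for cyclins B1 and B2 -0.22 ± 0.14 and -0.14 ± 0.13 (SE), and for Aurka -0.061 ± 0.13 (SE). Melk (ENSMUSG00000035683, chr4:44300876-44364675, plus strand), a kinase of mitotic cells, was the lowest of all members, with 2 to 23 counts per mouse. Its control means were 0.614 ± 0.255 at ZT0, 0.585 ± 0.296 at ZT4, 0.716 ± 0.134 at ZT8, 0.592 ± 0.215 at ZT12, 0.402 ± 0.31 at ZT16, and 0.648 ± 0.212 at ZT20 (CPM ± SD, n = 5 each). Its cKOt means were 0.465 ± 0.0949 at ZT0, 0.459 ± 0.276 at ZT4, 0.488 ± 0.142 at ZT8, 0.549 ± 0.311 at ZT12, 0.478 ± 0.43 at ZT16, and 0.276 ± 0.165 at ZT20 (CPM ± SD, n = 5 each). The adjusted p for Melk was 0.0616, and it fell below 0.05, to between 0.0326 and 0.0497, when any 1 of 11 mice was left out (7 control and 4 cKOt mice). Melk was retained through 1 cKOt mouse at ZT16 (replicate 2, 1.23 CPM). It was not tested without this mouse, without replicate number 2, or without the 14 libraries of high no-feature share.

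In the spindle checkpoint, Bub1 (ENSMUSG00000027379, chr2:127801122-127831865, minus strand), its kinase, was lower in cKOt mice. It had 3 to 32 counts per mouse, 0.215 to 1.49 CPM (median 0.931) in control and 0.156 to 1.64 CPM (median 0.588) in cKOt mice. Control means were 0.624 ± 0.385 at ZT0, 0.576 ± 0.202 at ZT4, 1.02 ± 0.143 at ZT8, 1.07 ± 0.39 at ZT12, 0.647 ± 0.369 at ZT16, and 1.06 ± 0.0668 at ZT20 (CPM ± SD, n = 5 each). For cKOt mice they were 0.719 ± 0.202 at ZT0, 0.793 ± 0.499 at ZT4, 0.444 ± 0.14 at ZT8, 0.686 ± 0.352 at ZT12, 0.445 ± 0.288 at ZT16, and 0.611 ± 0.195 at ZT20 (CPM ± SD, n = 5 each). Its log2 difference was -0.43 ± 0.15 (SE, adjusted p = 0.018). It was above 0 at ZT0 and ZT4 and below 0 at the other 4 time points, with no overlap of the genotypes at ZT8 and ZT20, and with batch in place of the 2 factors of unwanted variation in the fit (RUVs, estimated from the replicates) the adjusted p was 0.0519. The related kinase Bub1b (-0.09 ± 0.094, SE), the activator of the anaphase-promoting complex Cdc20 (-0.094 ± 0.14, SE), and its conjugating enzyme Ube2c did not pass. Ube2c (ENSMUSG00000001403, chr2:164769898-164778822, plus strand) was read from 2 to 24 counts per mouse. Its control means were 0.573 ± 0.228 at ZT0, 0.719 ± 0.41 at ZT4, 0.56 ± 0.25 at ZT8, 0.58 ± 0.339 at ZT12, 0.482 ± 0.201 at ZT16, and 0.647 ± 0.39 at ZT20 (CPM ± SD, n = 5 each) and its cKOt means 0.499 ± 0.148 at ZT0, 0.503 ± 0.448 at ZT4, 0.376 ± 0.125 at ZT8, 0.634 ± 0.309 at ZT12, 0.559 ± 0.165 at ZT16, and 0.614 ± 0.227 at ZT20 (CPM ± SD, n = 5 each), with a log2 difference of -0.17 ± 0.19 (SE, adjusted p = 0.47).

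At the centromere, Birc5 and Cenpf were lower and Cenpe was higher in cKOt mice. Birc5 (ENSMUSG00000017716, chr11:117849251-117855743, plus strand), the survivin subunit of the chromosomal passenger complex, was at 0.808 to 2.57 CPM (median 1.69) in control and 0.336 to 2.53 CPM (median 1.25) in cKOt mice. Its control means were 1.32 ± 0.438 at ZT0, 1.48 ± 0.435 at ZT4, 1.85 ± 0.496 at ZT8, 1.79 ± 0.0732 at ZT12, 1.66 ± 0.531 at ZT16, and 1.81 ± 0.479 at ZT20 (CPM ± SD, n = 5 each). Its cKOt means were 1.31 ± 0.332 at ZT0, 1.08 ± 0.591 at ZT4, 1.23 ± 0.336 at ZT8, 1.51 ± 0.776 at ZT12, 1.2 ± 0.401 at ZT16, and 1.3 ± 0.353 at ZT20 (CPM ± SD, n = 5 each), and the log2 difference was -0.38 ± 0.13 (SE, adjusted p = 0.010). Cenpf, a large kinetochore protein, was at 0.377 to 2.63 CPM (median 1.84) in control and 0.678 to 2.47 CPM (median 1.35) in cKOt mice, with a difference of -0.36 ± 0.12 (SE, adjusted p = 0.0118). Aurkb, the kinase of the passenger complex, did not pass (-0.23 ± 0.15 (SE, adjusted p = 0.21)). Without 1 cKOt mouse at ZT12 (replicate 3), the adjusted p of Aurkb was 0.0184.

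Cenpe (ENSMUSG00000045328, chr3:135212537-135273611, plus strand), a kinetochore motor, was at 1.88 to 9.24 CPM (median 3.62) in control and 2.04 to 8.4 CPM (median 4.38) in cKOt mice. Its log2 difference was 0.28 ± 0.11 (SE, adjusted p = 0.0326), but 17 of the 30 cKOt mice were above the control median and 13 below. The call was lost with limma-trend (adjusted p 0.0525), with no filter (0.0588), with the no-feature share in the model (0.270), without the 14 libraries with a high share (0.435), and when any 1 of 9 mice was left out (2 control and 7 cKOt mice, adjusted p 0.0522 to 0.0651). Within batches the difference ran from -0.08 to 0.64.

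Among spindle and cytokinesis genes, Nusap1, Hmmr, Prc1, Ect2, and Racgap1 were lower in cKOt mice, and Kif11, Tpx2, and Kif20a did not pass. Prc1 (ENSMUSG00000038943, chr7:80294450-80316259, plus strand), which bundles the microtubules of the central spindle, was at 0.775 to 4.12 CPM (median 2.73) in control and 0.938 to 4.02 CPM (median 2.1) in cKOt mice, with 27 of 30 cKOt mice below the control median. Control means were 2.81 ± 1.04 at ZT0, 2.48 ± 1.21 at ZT4, 2.84 ± 0.628 at ZT8, 2.76 ± 0.303 at ZT12, 2.68 ± 0.554 at ZT16, and 2.98 ± 0.818 at ZT20 (CPM ± SD, n = 5 each), and cKOt means were 2.18 ± 0.303 at ZT0, 1.99 ± 0.643 at ZT4, 1.99 ± 0.409 at ZT8, 2.29 ± 1.1 at ZT12, 2.27 ± 1.09 at ZT16, and 2.15 ± 0.19 at ZT20 (CPM ± SD, n = 5 each). This gave a log2 difference of -0.37 ± 0.12 (SE, adjusted p = 0.00705), below 0 at all 6 time points and in 5 of 6 batches. Nusap1 (ENSMUSG00000027306, chr2:119618298-119651244, plus strand), a spindle microtubule protein, was at 2.42 to 7.55 CPM (median 5.08) in control and 1.97 to 5.96 CPM (median 4.4) in cKOt mice (log2 difference -0.26 ± 0.081 (SE, adjusted p = 0.00724)). Hmmr, the hyaluronan receptor that also binds spindle microtubules, differed by -0.35 ± 0.13 (SE, adjusted p = 0.018). With batch in place of the RUVs factors its adjusted p was 0.0540.

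Ect2, the exchange factor that activates RHOA in cytokinesis, differed by -0.18 ± 0.059 (SE, adjusted p = 0.0117), and Racgap1, its partner in centralspindlin, by -0.21 ± 0.083 (SE, adjusted p = 0.036). For Ect2, every cKOt mouse lay above every control mouse at ZT4 (9.84 to 11.6 CPM against 5.84 to 9.83 CPM), although the mean over the day was lower. Its adjusted p was 0.0758 with batch in place of the RUVs factors. The Racgap1 call was lost with no filter (adjusted p 0.0640) and when any 1 of 12 mice was left out (7 control and 5 cKOt mice, adjusted p 0.0514 to 0.0716). The log2 differences of Kif11, Tpx2, and Kif20a, 2 kinesins and a spindle assembly factor, were -0.13 ± 0.10, -0.14 ± 0.12, and -0.19 ± 0.10 (SE).

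Of the chromosome proteins, Mki67, Top2a, and Smc2 passed. Mki67 (ENSMUSG00000031004, chr7:135689784-135716361, minus strand), which encodes the Ki-67 protein of the mitotic chromosome surface, was at 3.02 to 12.4 CPM (median 9.26) in control and 3.79 to 10.3 CPM (median 6.41) in cKOt mice, with 28 of the 30 cKOt mice below the control median. Its control means were 7.95 ± 2.8 at ZT0, 7.46 ± 3.11 at ZT4, 9.6 ± 1.81 at ZT8, 9.45 ± 1.71 at ZT12, 6.95 ± 2.12 at ZT16, and 8.75 ± 2.0 at ZT20 (CPM ± SD, n = 5 each). In cKOt mice they were 6.98 ± 1.38 at ZT0, 6.89 ± 1.9 at ZT4, 6.24 ± 1.43 at ZT8, 7.1 ± 1.54 at ZT12, 6.37 ± 2.1 at ZT16, and 6.29 ± 1.92 at ZT20 (CPM ± SD, n = 5 each). Fitted over all times, the log2 difference was -0.34 ± 0.10 (SE, adjusted p = 0.00477), below 0 at all 6 time points and in 5 of 6 batches (-0.64 to 0.28). Top2a, the topoisomerase of replicating and condensing DNA, was at 2.53 to 8.79 CPM (median 5.9) in control and 2.18 to 7.31 CPM (median 4.57) in cKOt mice. Its log2 difference was -0.26 ± 0.10 (SE, adjusted p = 0.0257). With batch in place of the RUVs factors it was -0.21 with an adjusted p of 0.105.

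The core condensin subunits Smc2 and Smc4 differed from Mki67 and Top2a in direction or in the call. Smc2 (ENSMUSG00000028312, chr4:52439243-52488260, plus strand) was higher in cKOt mice, at 6.58 to 11.7 CPM (median 8.8) against 5.74 to 9.07 CPM (median 7.41) in control mice. Control means were 7.9 ± 0.968 at ZT0, 6.75 ± 0.537 at ZT4, 7.14 ± 0.707 at ZT8, 7.8 ± 1.12 at ZT12, 7.1 ± 1.16 at ZT16, and 7.82 ± 0.939 at ZT20 (CPM ± SD, n = 5 each). The cKOt means were 9.2 ± 0.766 at ZT0, 8.89 ± 1.02 at ZT4, 8.45 ± 2.1 at ZT8, 9.64 ± 1.25 at ZT12, 7.53 ± 0.424 at ZT16, and 9.28 ± 1.35 at ZT20 (CPM ± SD, n = 5 each), and the log2 difference was 0.23 ± 0.039 (SE, adjusted p = 2.6e-06), above 0 in all 6 batches. Smc2 was at 6.85 to 11.7 CPM (median 9.34) in the 14 libraries with a high no-feature share and at 6.58 to 9.64 CPM (median 8.4) in the other 16 cKOt libraries. Without the 14, its log2 difference was 0.22 (adjusted p = 0.000344). Smc4 (ENSMUSG00000034349, chr3:69004738-69034623, plus strand), the second most abundant member, had control means of 23.4 ± 2.49 at ZT0, 24.2 ± 2.87 at ZT4, 26.9 ± 1.49 at ZT8, 26.4 ± 2.29 at ZT12, 24.5 ± 3.68 at ZT16, and 26.2 ± 1.64 at ZT20 (CPM ± SD, n = 5 each). Its cKOt means were 23.7 ± 0.794 at ZT0, 26.4 ± 4.6 at ZT4, 24.2 ± 4.03 at ZT8, 28.2 ± 5.06 at ZT12, 22.0 ± 0.947 at ZT16, and 24.8 ± 1.73 at ZT20 (CPM ± SD, n = 5 each), and the difference of -0.047 ± 0.03 (SE, adjusted p = 0.186) did not pass. Smc4 was at 20.4 to 34.2 CPM (median 26.2) in the 14 libraries and at 21.5 to 25.9 CPM (median 22.7) in the other 16. Without the 14, its log2 difference was -0.098 (adjusted p = 0.0428).

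Markers of several other cell types moved with the genotype too, where 26.8% of all genes tested were higher and 23.2% lower. Of 9 macrophage and MHC class II markers, 8 were lower in cKOt mice, and their summed level was 242 to 429 CPM (median 325) in the controls and 178 to 311 CPM (median 273) in cKOt mice. Of 5 T cell markers, 4 were lower, with summed levels of 2.57 to 6.64 CPM (median 3.41) in control and 1.8 to 3.92 CPM (median 2.62) in cKOt mice. Endothelial and fibroblast markers were lower for 5 of 6 each, with median log2 differences of -0.10 and -0.19. Of 5 podocyte markers, 1 was higher and 0 were lower (median log2 difference -0.031). Of 3 retained erythroid markers 1 was lower, namely Slc4a1, which is also the 1 lower marker among those of intercalated cells. Of 6 markers of tubular injury 2 were higher and 2 lower. Of the tubular markers, 4 of 5 of the thick ascending limb, 3 of 4 of the distal convoluted tubule, 4 of 5 of intercalated cells, 4 of 8 of the proximal tubule, and 2 of 6 of principal cells were higher, and 1, 0, 1, 2, and 1 were lower. The part of these cells in the lower mitotic transcripts was not tested.

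Leaving out mice changed the number of lower members more than that of higher ones. When all mice of 1 replicate number were left out in turn, 6 to 8 members were higher and 5 to 13 lower, with 5 lower both without replicate number 4 and without replicate number 5. Racgap1 lost its call in 4 of these 5 fits (adjusted p up to 0.203), and Top2a and Cenpe in 3. Bub1, Cenpf, Hmmr, Prc1, Ect2, and Pcna lost theirs in 2 of the 5, and Birc5 and Nusap1 in 1. When 1 mouse was left out at a time, 7 to 9 were higher and 11 to 15 lower. Of the 20 called members, 8 passed under every setting run, the 2 fits on the no-feature share included, namely Mcm2, Mcm4, Mcm5, Mcm7, Rrm1, Tk1, Smc2, and Mki67.

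Whether the transcripts varied over the day was tested in each genotype with no shape assumed. Of all genes tested, 30.6% varied with time in control mice and 26.6% in cKOt mice. Among the members, 3 of 41 passed in control mice (Mcm4, Tyms, and Tk1) and 3 of 41 in cKOt mice (Mcm7, Nusap1, and Cenpe). In the model selection of dryR, which weighs 24 h rhythms in either genotype by the Bayesian information criterion (BIC), 33 of the 41 members were assigned to model 1 (no rhythm in either genotype), 5 were unassigned at a BIC weight of 0.65, and 3 had a rhythm in at least 1 genotype. Of all genes tested, 37.3% had such a rhythm and 34.0% were in model 1.

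Mcm7 was the member with a gain of rhythm (model 3, BIC weight 0.949). Control means were 15.9 ± 0.874 at ZT0, 18.6 ± 2.27 at ZT4, 16.9 ± 1.88 at ZT8, 15.5 ± 1.1 at ZT12, 16.4 ± 2.63 at ZT16, and 17.8 ± 3.01 at ZT20 (CPM ± SD, n = 5 each), and cKOt means were 18.6 ± 1.52 at ZT0, 21.9 ± 2.3 at ZT4, 24.1 ± 1.51 at ZT8, 19.8 ± 1.54 at ZT12, 17.5 ± 1.84 at ZT16, and 17.6 ± 1.74 at ZT20 (CPM ± SD, n = 5 each). At ZT8 the 5 control mice had 14.0, 16.1, 17.7, 18.0, and 18.6 CPM and the 5 cKOt mice 22.0, 23.8, 23.8, 25.3, and 25.8 CPM. The cKOt mice were above all control mice at ZT0, ZT8, and ZT12, whereas at ZT4, ZT16, and ZT20 the groups overlapped. The peak-to-trough amplitude was 0.47 on the log2 scale with a peak at ZT6.82 in cKOt mice, and 0.12 in control mice. Time of day passed in cKOt mice (adjusted p = 0.000192) and not in control mice (adjusted p = 0.198). The difference between the genotypes in this course was tested by the interaction, which did not pass (adjusted p = 0.10). Without 1 control mouse at ZT16 (replicate 2) or 1 at ZT20 (replicate 1), the adjusted p was 0.0447 and 0.0376. Mcm7 stayed in model 3 under each alternative run for the rhythms.

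Tyms and Cenpe were assigned to model 4, an unaltered rhythm. Tyms (ENSMUSG00000025747, chr5:30058202-30073617, minus strand), the only member with the E-box letters in its window, had control means of 16.5 ± 1.6 at ZT0, 14.7 ± 0.947 at ZT4, 13.7 ± 1.0 at ZT8, 12.7 ± 1.32 at ZT12, 15.0 ± 2.55 at ZT16, and 17.4 ± 3.6 at ZT20 (CPM ± SD, n = 5 each). Its cKOt means were 15.0 ± 2.5 at ZT0, 14.2 ± 0.725 at ZT4, 13.0 ± 2.28 at ZT8, 14.2 ± 2.21 at ZT12, 15.4 ± 2.18 at ZT16, and 16.0 ± 2.01 at ZT20 (CPM ± SD, n = 5 each). The common amplitude was 0.34 on the log2 scale with a peak at ZT21.2 (BIC weight 0.677). Time passed in control mice (adjusted p = 0.00246), and in cKOt mice the adjusted p was 0.0591. The latter fell below 0.05 with the DESeq2 test (0.0214), with the replicate number as a block (0.0405), and without any 1 of 8 mice (1 control and 7 cKOt mice). The model of Tyms was lost at a BIC weight of 0.8, without replicate number 3 or 5, and without the 14 libraries.

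Cenpe had the largest amplitude of the 3, 0.76 on the log2 scale with a common peak at ZT9.33 (BIC weight 0.978). Control means were 2.75 ± 0.479 at ZT0, 3.53 ± 0.656 at ZT4, 4.45 ± 0.713 at ZT8, 5.11 ± 2.58 at ZT12, 3.1 ± 0.789 at ZT16, and 3.13 ± 0.859 at ZT20 (CPM ± SD, n = 5 each), and cKOt means were 2.98 ± 1.28 at ZT0, 5.34 ± 1.58 at ZT4, 5.63 ± 2.0 at ZT8, 5.69 ± 2.19 at ZT12, 3.75 ± 1.51 at ZT16, and 4.15 ± 1.66 at ZT20 (CPM ± SD, n = 5 each). At ZT12 the control mice spread from 2.38 to 9.24 CPM and the cKOt mice from 2.88 to 8.40 CPM. The time test had an adjusted p of 0.0871 in control and 0.0406 in cKOt mice. The call in cKOt mice was lost with limma-trend, with no RUVs factors, and without the mouse that the study's sample table marks for removal. It was also lost without any 1 of 13 cKOt mice, the marked mouse included (adjusted p 0.0501 to 0.117). The same held without replicate number 1, 2, or 4 (adjusted p 0.0731 to 0.366). Without the 14 libraries with a high no-feature share, the adjusted p was 0.0918. In that fit, 1520 of all genes varied with time in cKOt mice, against 4142 with all libraries.

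Nusap1 varied over the day in cKOt mice (adjusted p = 0.00551) but not by the test in control mice (adjusted p = 0.215). The call in cKOt mice was lost without replicate number 1 or 4 (adjusted p 0.0650 to 0.0651). The interaction had an adjusted p of 0.688, so the 2 courses were not shown to differ. Control means were 4.31 ± 1.41 at ZT0, 4.87 ± 1.34 at ZT4, 5.22 ± 0.911 at ZT8, 6.37 ± 0.833 at ZT12, 4.23 ± 1.2 at ZT16, and 5.17 ± 1.84 at ZT20 (CPM ± SD, n = 5 each). In cKOt mice they were 3.79 ± 0.77 at ZT0, 5.21 ± 0.441 at ZT4, 4.97 ± 0.755 at ZT8, 5.31 ± 0.521 at ZT12, 2.85 ± 0.927 at ZT16, and 3.63 ± 0.19 at ZT20 (CPM ± SD, n = 5 each), lowest at ZT16, where the 5 mice had 1.97, 2.02, 2.99, 3.05, and 4.24 CPM. Without the 14 libraries, the adjusted p for time of Nusap1 in cKOt mice was 0.0607, in the fit where 1520 of all genes passed this test. Its rhythm model was unassigned.

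For Mcm4 the adjusted p for time in control mice was 0.000664, and no 24 h rhythm was assigned (model 1, BIC weight 0.914). The control means given above were high at ZT12 and ZT20 and low at ZT0 and ZT16. The Tk1 values in control mice were highest at ZT16, where the 5 mice had 10.6, 11.8, 12.5, 14.9, and 15.0 CPM (adjusted p = 0.0413). This call was lost with 6 of the 11 other settings, the replicate block among them (adjusted p 0.0506 to 0.183), and without any 1 of 11 control mice (4 at ZT0, 3 at ZT4, 3 at ZT16, and 1 at ZT20).

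**Figure D3:**
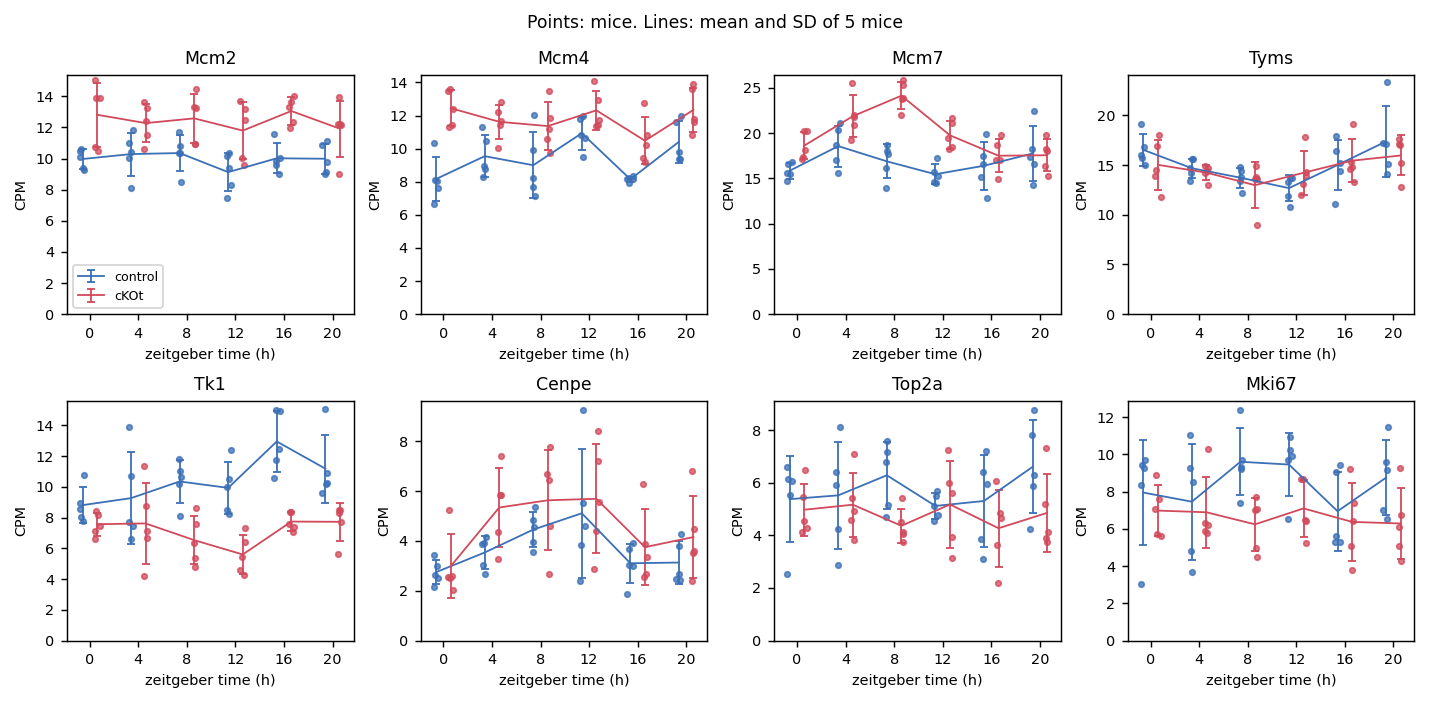
Levels (y axis, CPM) of 8 transcripts by zeitgeber time (x axis, h) in control (blue) and cKOt mice (red). Points are mice, and lines join group means with SD (n = 5); Mcm7 in cKOt mice has its highest mean, 24.1 CPM, at ZT8, and Mki67 and Tk1 have lower cKOt than control means at all 6 time points.

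A genotype difference that changes over the day was sought with the interaction term. Of all genes tested, 3.08% passed. None of the 41 members passed with edgeR, and 3 had an unadjusted p below 0.05 (Mcm7, Mcm4, and Tk1). None passed with DESeq2 or with limma-trend either, where 5 members each had an unadjusted p below 0.05.

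Members also varied between mice of the same group. The summed level of the 28 mitotic members was 68.5 to 139.5 CPM (median 108) in control and 66.2 to 124 CPM (median 97.4) in cKOt mice. That of 12 replication members, without Mcm6, was 109 to 151 CPM (median 127) in control and 123 to 149.6 CPM (median 138) in cKOt mice. The ranges overlapped in both cases. Some mice were low throughout the mitotic set, and 4 of the 60 were lowest for more than 20 of its members. One control mouse at ZT0 (replicate 1) had the lowest level of its group for 25 of the 28 mitotic members, and 22.2% of all genes tested were lowest in this mouse. Of the cKOt mice, 1 at ZT12 (replicate 2) was lowest for 23 of the 28 and 1 at ZT16 (replicate 1) for 22, and for all genes the shares were 13.9% and 16.4%. The fourth, a control mouse at ZT4 (replicate 2), was lowest for 21 of the 28 and for 24.8% of all genes.

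**Figure D4:**
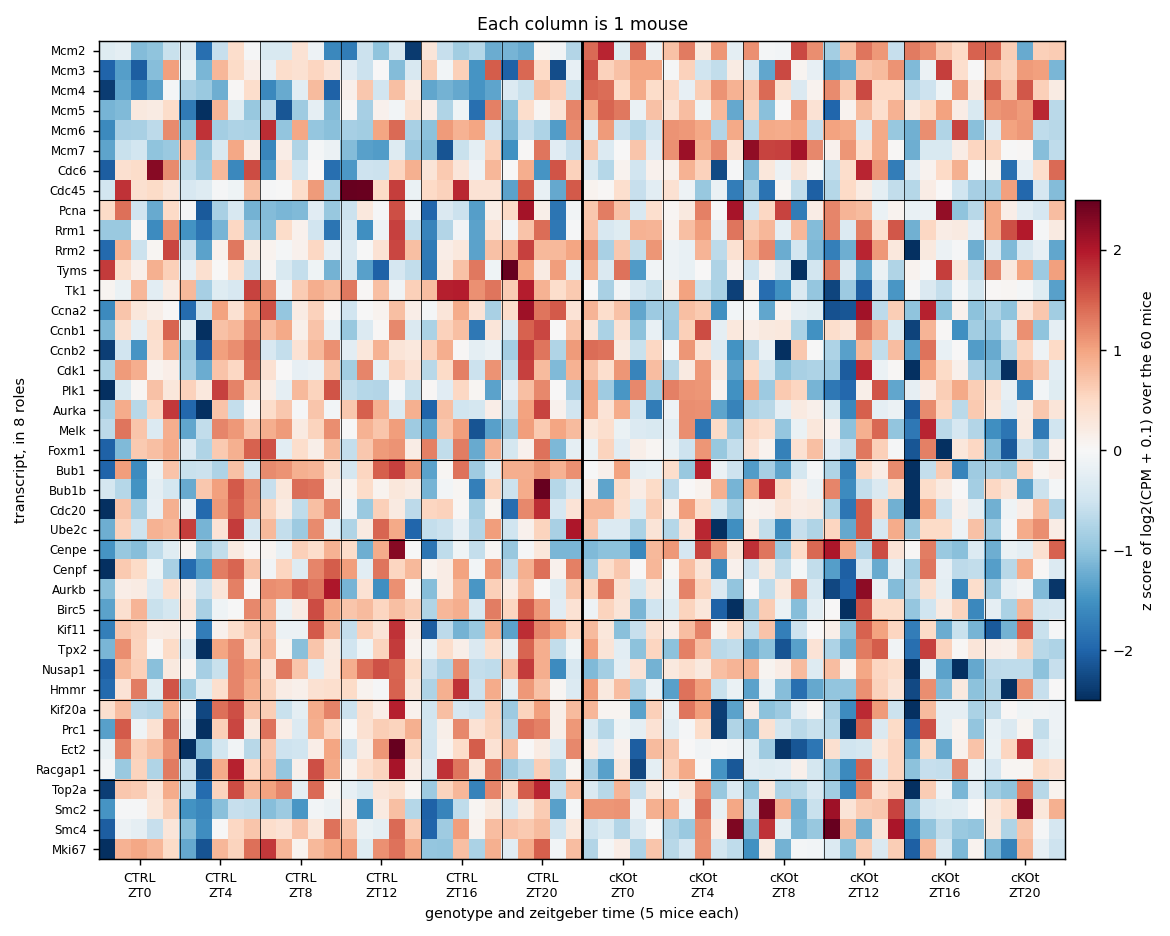
Level of each of the 41 transcripts (rows, in 8 roles separated by lines) in each of the 60 mice (columns, 12 groups of 5), as z scores of log2(CPM + 0.1) over all mice. Mitotic rows are low together in single columns, such as the first control mouse at ZT0, and Mcm2 and Mcm4 are higher on the right, in cKOt mice.

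As an example chosen after the values were seen, Mki67 and Top2a were compared as logCPM minus the mean of the mouse's own group. Over the 60 mice, Pearson's r was 0.84 and Spearman's rho 0.80. Without the 2 mice farthest from the median of Mki67, r was 0.79, and within the 6 batches it ranged from 0.78 to 0.95. Against Mcm2, a replication transcript, Mki67 gave r = -0.14 and rho = -0.17, and r ranged from -0.62 to 0.23 within batches. These are descriptions without a test, since the pair was picked for its pattern. The values share library and scaling.

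**Figure D5:**
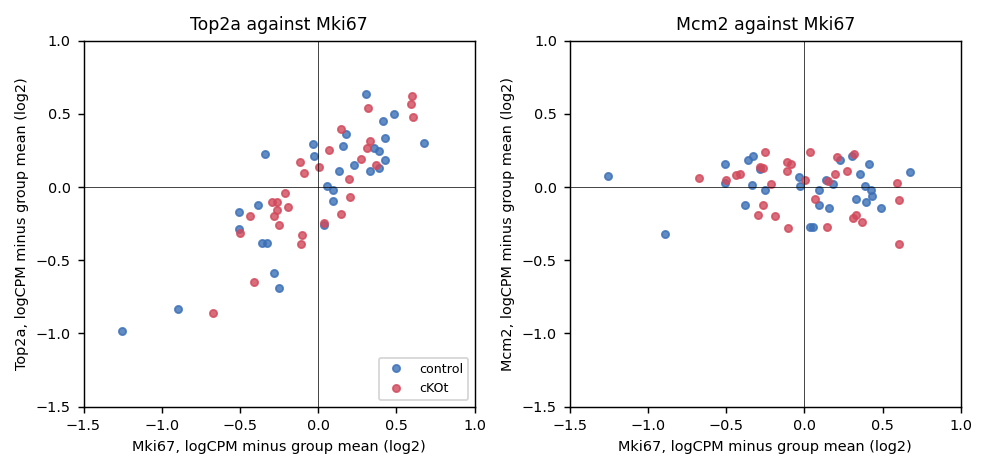
Deviation of Top2a (left, y axis) and Mcm2 (right, y axis) from their group means against that of Mki67 (x axis), all as logCPM on the log2 scale, for 60 mice (control in blue, cKOt in red). The points of Top2a, a gene picked for this pattern, lie along a rising line (r = 0.84), and those of Mcm2 are spread around 0 (r = -0.14).

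Another 123 genes of replication and the cell cycle were read for context, of which 114 were retained. In cKOt mice, 34 of these had higher and 13 had lower levels by the test, where 26.8% of all genes tested were higher and 23.2% lower. In the role of polymerases, clamp loader, and fork, 14 of 28 were higher and 2 lower, and among initiation factors and helicase partners 6 of 16 were higher and 1 lower. Among condensin, kinetochore, spindle, and cytokinesis genes 8 of 52 were higher and 8 lower, and among G1/S cyclins, E2F, and MuvB regulators 6 of 18 were higher and 2 lower. Medians of the log2 difference were 0.092, 0.065, -0.048, and 0.035 in this order. In the time tests, 22 of the 114 passed in control and 21 in cKOt mice, where 30.6% and 26.6% of all genes passed.

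The 8 with the smallest p were Mcm10, Pole4, and Kif20b, which were lower, and Mcm9, Hjurp, Kif23, Rbl1, and Cdt1, which were higher. Mcm10, a replication initiation factor, was at 4.03 to 12.6 CPM (median 7.66) in control and 2.91 to 4.59 CPM (median 3.63) in cKOt mice, with a log2 difference of -1.03 ± 0.059 (SE, adjusted p = 1.44e-21). Control means were 5.2 ± 1.15 at ZT0, 8.61 ± 1.27 at ZT4, 9.92 ± 1.74 at ZT8, 9.93 ± 2.06 at ZT12, 7.36 ± 1.47 at ZT16, and 5.53 ± 1.14 at ZT20 (CPM ± SD, n = 5 each), and cKOt means were 3.79 ± 0.589 at ZT0, 3.56 ± 0.437 at ZT4, 3.69 ± 0.659 at ZT8, 4.03 ± 0.515 at ZT12, 3.38 ± 0.34 at ZT16, and 3.61 ± 0.267 at ZT20 (CPM ± SD, n = 5 each). It was the only one of the 114 to pass the interaction test (adjusted p = 0.00141) and was assigned to model 2, loss of rhythm, with an amplitude of 1.05 on the log2 scale and a peak at ZT9.42 in control mice and an amplitude of 0.062 in cKOt mice. Cdt1, which loads the MCM ring with CDC6, differed by 0.46 ± 0.067 (SE, adjusted p = 8.19e-08), and Mcm9, a helicase paralog of repair, by 0.32 ± 0.03 (SE, adjusted p = 2.35e-13). Pole4, a subunit of polymerase epsilon, differed by -0.44 ± 0.03 (SE, adjusted p = 9.85e-19), and the kinesin Kif20b by -0.64 ± 0.078 (SE, adjusted p = 8.16e-10). The log2 difference was 0.51 ± 0.068 for the centralspindlin motor Kif23, 0.23 ± 0.028 for the CENP-A chaperone Hjurp, and 0.25 ± 0.034 for the pocket protein gene Rbl1 (SE).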

How the data were processed

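RNA-Seq was analysed from 60 mouse kidney samples. Per the study's methods, RNA was taken from kidney tissue, whereas the sample labels name the renal tubule. Libraries were made from 200 ng RNA with a stranded mRNA kit. The authors had selected 5 mice per group by RNA quality and by distance from the other replicates, which can narrow the spread within a group. Per the labels, reads were processed with cutadapt (1.8), STAR (2.5.3a), and HTSeq (0.9.1) on GRCm38, and the strand setting of the counting is not given in the sources used here. The authors deposited whole-number counts of reads per gene, with no normalization. Libraries held 17791420 to 20906706 counts on genes. No 2 replicates were identical in 120 pairs. Groups, time points, and replicate numbers came from the labels, and batch and the mouse marked for removal from the study's sample table.

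Symbols and positions came from GENCODE M21 (GRCm38). Of the 55335 gene IDs, 55154 had a symbol. The members and the gene lists were chosen with earlier results of these data known. Retained genes reached 1 CPM in 1 mouse or more. CPM values are TMM-normalized. Counts were fitted with edgeR (4.0.16, R 4.3.3) with 12 groups and 2 RUVs factors, and p values were adjusted by Benjamini-Hochberg over all 15546 genes. P values rest on the spread between mice of a group that is left after the 2 RUVs factors, which were estimated from that same spread. RUVs (logCPM, prior count 2) and the dryR procedure were recoded from their descriptions, and the edgeR fit and the rhythm models were tested on simulated data. Alternatives used DESeq2 (1.42.0), limma (3.58.1), other filters and factors, and left out mice. A fit with the share of reads on no feature, and one without 14 cKOt libraries above every control in this share, were added after the data were seen. Replicate numbers did not pair mice, since residuals correlated on average at 0.0043 in 330 pairs with the same number and at -0.0010 in 1320 others. For batch, the averages were 0.036 in 270 pairs of the same batch and -0.0070 in 1380 others. Batch was not a term of the main fit.

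Values in every group are given for members that passed a test (for genotype, the 12 with the smallest p) and for the 3 highest and 3 lowest by mean CPM. Of other pathway genes, the 8 with the smallest p are named, and 1 symbol was not matched. Ect2 at ZT4 and the single mice were chosen after their values were seen. The B cell markers are not reported here.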

Additional observations from a re-analysis of the deposited data

Results flagged for a closer look

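In 252 groups of 5 mice (19 members and 2 summed levels in 12 groups each), 23 held a mouse that stood apart from the other 4 by Dixon's ratio above 0.71, or 9.13%, where chance gives about 5%. For Mki67, these were a control mouse at ZT0 with 3.02 CPM (the others 8.35 to 9.67), a control mouse at ZT12 with 6.51 CPM, and a cKOt mouse at ZT4 with 10.3 CPM. Tk1 had a control mouse at 15.1 CPM and a cKOt mouse at 5.63 CPM, both at ZT20. For Pcna, a control mouse at ZT8 had 29.8 CPM and a cKOt mouse at ZT16 37.5 CPM (the others 27.8 to 30.1), and for Tyms a cKOt mouse at ZT8 had 9.00 CPM (the others 13.6 to 14.9). Cenpe reached 5.24 CPM in a cKOt mouse at ZT0 (the others 2.04 to 2.57). Nusap1 was at 6.37 CPM in a control mouse at ZT16, the same mouse in which Cdc45 was at 4.59 CPM, and at 3.29 CPM in a cKOt mouse at ZT20. Smc2 was at 7.86 CPM in a cKOt mouse at ZT0 and 11.6 CPM in one at ZT20, where Birc5 in the same mouse was at 1.91 CPM. Smc4 was at 31.1 CPM in a cKOt mouse at ZT8.

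Of the members with few counts, Melk stood at 0.282 CPM in a control mouse at ZT20 and at 1.23 CPM in a cKOt mouse at ZT16, Bub1 at 0.934 CPM in a control mouse at ZT4 and 1.07 CPM in a cKOt mouse at ZT0, and Ube2c at 0.835 CPM in a control mouse at ZT16. The summed level of the mitotic members was 84.6 CPM in a cKOt mouse at ZT12 (the others 109 to 118), and that of the replication members was 143 CPM in a control mouse at ZT12 (the others 124 to 128).

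The genotype difference of Mcm10 differed between time points by the interaction test (adjusted p = 0.00141).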

How the results depend on the processing

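With 11 other settings and with mice left out, no called log2 difference changed sign, and 8 of the 20 called members kept their call in all of them. An added fold change of 1.2 left 12 called members, 4 of them higher. With the share of reads on no feature in the model, 11 members were called (3 lower). Without the 14 libraries of high share, 12 were called (4 lower), 1 member varied with time in cKOt mice (Mcm7), and 40 members were retained (all but Melk). In that fit, 1520 of all 15385 genes varied with time in cKOt mice, against 4142 of 15546 in the main fit. With batch in place of the RUVs factors, 8 members were lower and 8 higher. Without the marked mouse, with no RUVs factors, and with DESeq2 size factors, the numbers stayed at 8 higher and 12 lower; with no filter they were 7 and 11. Leaving out 1 replicate number gave 12 to 20 called members (5 to 13 lower), 0 members with an interaction, 2 to 4 with time in control mice, 1 to 3 with time in cKOt mice, 3 to 5 with a rhythm, and 3 to 9 unassigned. Leaving out 1 mouse gave 18 to 23 called members (11 to 15 lower), 0 to 1 with an interaction (Mcm7), and 2 to 4 with time in either genotype. A BIC weight of 0.8 left 14 members unassigned. With the replicate number as a block, 8 members were higher and 12 lower, and 2 and 4 varied with time in control and cKOt mice (Tk1 was lost and Tyms gained), with no other call changed. Of the 21 members not called, 10 changed sign in some setting, and Mcm3, Ccna2, Melk, Foxm1, and Aurkb passed when certain single mice were left out. The causes were not tested.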
